A study of Mus with 8 samples.

Results

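Immediate early genes are the genes a cell switches on within minutes of a signal, from transcription factors already present and without new protein synthesis. The 37 genes described here are the members of that class chosen by name: the Fos, Jun, Egr, Klf and Dusp families, the factors Atf3, Maff and Myc, the Ier and Btg genes, feedback regulators, inducible kinases, and the Ccn genes with Arc. Of these, 36 had a probe set annotated with a single gene, among 30723 genes measured that way. Junb was the exception, because its probe set is annotated with more than 1 gene, and it has no value here.

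The samples are interscapular brown adipose tissue of C57BL/6 mice, dissected as the butterfly-shaped depot, with 4 mice labelled Hilpda KO and 4 labelled wild type (WT). Hilpda encodes a lipid droplet protein that inhibits adipose triglyceride lipase, and the comparison asks what its loss does to gene expression in this tissue. All 8 mice are labelled female, no treatment is named, and for the age of the mice and the way Hilpda was deleted the sources give no entry. Total RNA of each mouse was hybridised to 1 Affymetrix array, and the values are deposited log2 expression values.

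In resting cells the promoters of immediate early genes carry serum response factor with its ternary complex partners, or CREB, and are activated by MAP kinase, calcium or cyclic AMP signalling. Fos and Jun proteins pair to form AP-1, which with the Egr and Klf factors drives a later wave of genes, while dual-specificity phosphatases, Zfp36 and Nfkbia shut the signals down again. Brown fat receives noradrenaline from sympathetic nerves, which acts through cyclic AMP and can reach several of these promoters.

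The arrays form 2 sets, and KO and WT are compared within a set. Replicates 1 and 2 of both groups (set 1) had a median over all genes of 3.92 to 3.99, and replicates 3 and 4 (set 2) one of 4.92 to 4.97. What separates the sets is not stated in the labels. With 2 arrays per group in each set, the spread behind every test came from all 8 arrays in 1 limma fit. The targeted gene did not settle the genotype labels in either set. In set 1 Hilpda read 4.45 and 4.37 on KO1 and KO2 against 4.37 and 4.28 on WT1 and WT2. In set 2 it read 5.60 and 5.51 on KO3 and KO4 against 6.00 and 5.92 on WT3 and WT4, a KO minus WT difference of -0.40 ± 0.10 (SE, adjusted p 0.144). Both KO arrays lay below both WT arrays in set 2 for 19.1% of all genes. Whether the Hilpda probes lie in the deleted part is not known here, so a direction in either set is one between arrays labelled KO and arrays labelled WT. The Y-linked genes Uty (9.31 to 10.93), Eif2s3y (8.53 to 11.01) and Kdm5d (7.00 to 8.63) gave signal on all 8 arrays while Xist stayed at 3.49 to 4.10, against the female label. Of the defining brown adipocyte genes, Ucp1 read 19.68 to 19.93, near the top of the scale, and Prdm16 read 5.07 to 6.83.

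Signal of the immediate early genes themselves ranged from absent to strong. A value was called low when it did not exceed the 95th percentile of 1082 olfactory receptor genes, which are not expected in fat, on the same array (3.81 to 3.97 in set 1 and 4.75 to 4.87 in set 2). By that measure 22 of the 36 genes were above low signal on all 8 arrays, 7 on some, and 7 on none, namely Fosl1, Egr3, Dusp2, Dusp5, Ier5, Socs3 and Arc. Differences for those 7 lay between -0.28 and 0.22 in either set and describe probe sets near background.

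No member passed the test for a KO minus WT difference in either set or for the mean of the sets, at a Benjamini-Hochberg adjusted p under 0.05. The shares of all genes that passed were 0.0% in set 1, 0.00325% in set 2 (1 gene) and 0.0% for the mean of the sets, so almost nothing on the array passed there either. The same limma fit gave an unadjusted p under 0.05 to 4 members in set 1 (7.74% of all genes), all of them below 0, where the shares of all genes were 5.07% below and 2.67% above 0. For set 2, where 15.1% of all genes had such a p, it did so for 14 members above 0 (38.9% of members, 8.92% of all genes) and 3 below (8.33% of members, 6.15% of all genes). For the mean of the sets it did so for 11 members, against 7.12% of all genes. Of the 17095 genes with a mean above low signal, 1498 had such a p below 0 in set 1. In set 2, 2205 of those genes had it above 0 and 1494 below, and for the mean of the sets 1569 had it. Ordinary least squares without moderation passed no gene in any of these 3 comparisons.

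More members lay below 0 in set 1 and above 0 in set 2, and the set 1 shares were near those of expressed genes. In set 1 the difference was above 0 for 14 (38.9%) and below 0 for 22 members (61.1%), with a median of -0.069 against 0.004 over all genes. Of all genes 51.0% were above and 48.9% below 0 there. Of the 17095 genes with a mean above low signal 40.5% were above and 59.4% below, with a median of -0.043. In set 2 the difference was above 0 for 27 members (75.0%) and below 0 for 9 (25.0%), with a median of 0.444 against 0.017 over all genes. The shares were 53.6% above and 46.4% below 0 over all genes, and 55.3% and 44.7% over those above low signal. Differences of at least 0.5 in size were found for 9 members in set 1 (25.0%, against 4.85% of all genes) and for 18 in set 2 (50.0%, against 9.55%). Of the 17095 genes above low signal, 1404 had such a difference in set 1 and 2615 in set 2.

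The order of the arrays was counted as well. In set 2 both KO arrays lay above both WT arrays for 20 members (55.6%, against 24.0% of all genes and 29.1% of those above low signal) and below both for 5 (13.9%, against 19.1% and 21.6%). In set 1 both arrays labelled KO lay above both labelled WT for 2 members (5.56%, against 18.9% of all genes and 14.2% of those above low signal) and below both for 10 (27.8%, against 19.4% of all genes and 27.3% of those above low signal), so the second share is near the background of expressed genes. The 9 members Jund, Klf4, Dusp4, Dusp6, Atf3, Ier2, Plk3, Sik1 and Ccn2 were below in set 1 and above in set 2 (25.0%, against 7.4% of all genes and 12.0% of those above low signal). Fosl2 and Maff were above in both sets (2.86% of all genes), and Plk2 was below in both (2.44%).

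**Figure D1:**
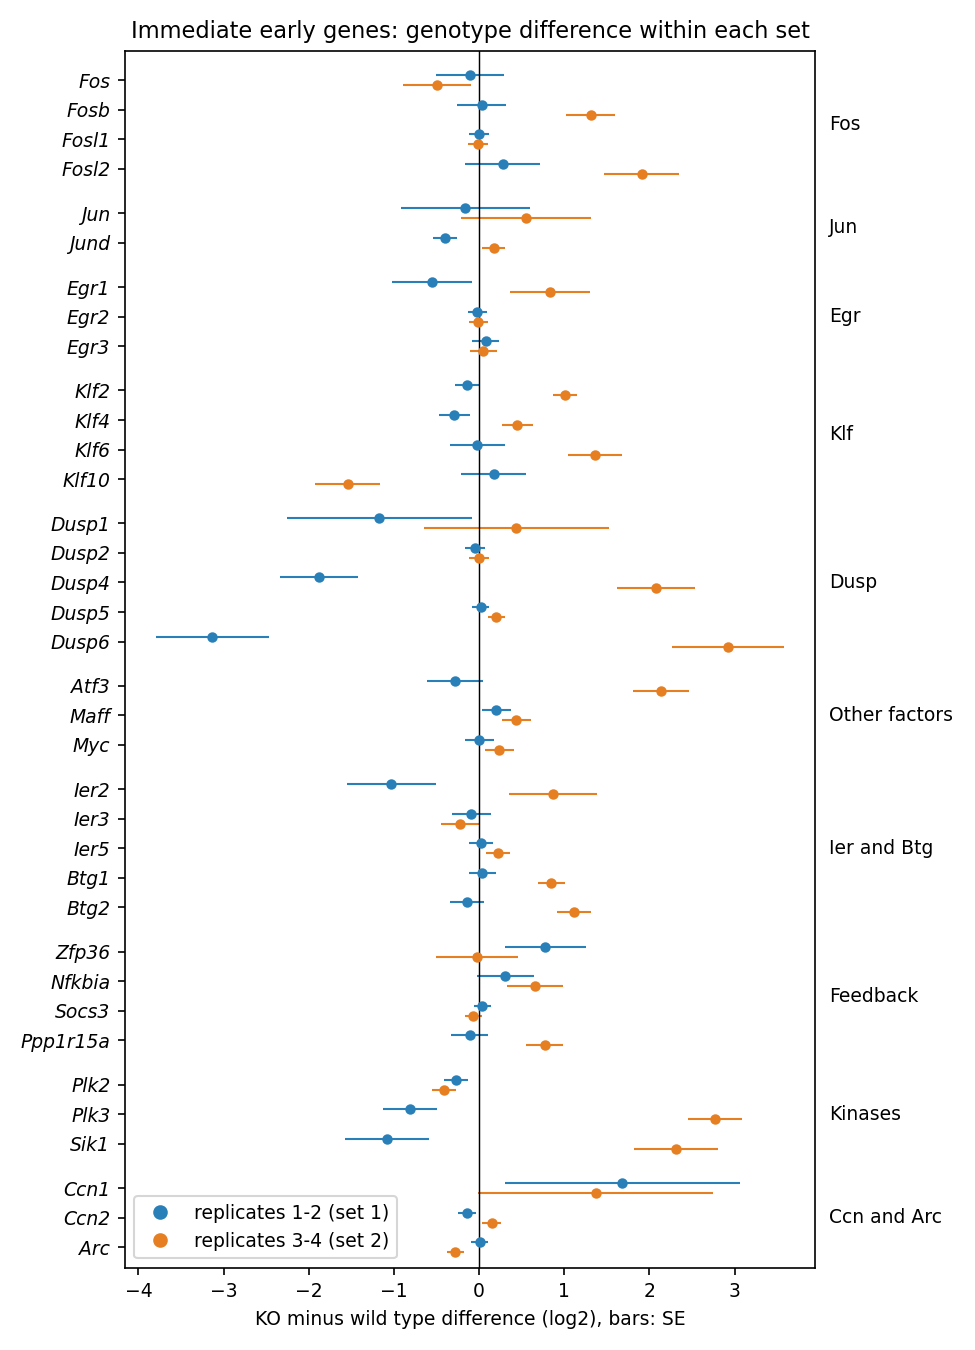
KO minus WT difference in log2 for each of the 36 immediate early genes, by family, with points for the fitted difference and bars for its standard error, in replicates 1 and 2 (set 1, blue) and replicates 3 and 4 (set 2, orange; 2 arrays per group in each set). In set 2, 27 of the 36 points lie above 0 (75.0%, against 55.3% of genes above low signal). In set 1, 22 lie below it (61.1%, against 59.4%, near that background). Dusp6 runs from -3.13 to 2.92.

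The Fos proteins are the partners that Jun needs to form the more stable AP-1 dimers. Fosl2, which encodes Fra-2, read 5.36 and 5.25 on KO1 and KO2 against 4.89 and 5.17 on WT1 and WT2. Its set 2 values were 7.11 and 8.69 on KO3 and KO4 against 5.91 and 6.06 on WT3 and WT4. Both KO arrays were thus above both WT arrays in each set, by 0.28 ± 0.44 (SE) in set 1 and 1.91 ± 0.44 in set 2 (adjusted p 0.133), with KO4 the highest. Without KO3 the set 2 difference was 2.70 with an adjusted p of 0.0259, the spread of the lone KO4 being taken from the other groups. The mean of the 2 differences was 1.09 ± 0.31 (adjusted p 0.653). Fosb, which encodes full-length FosB and the long-lived splice form ΔFosB, stayed under low signal in set 1, at 3.41 and 3.42 on KO1 and KO2 and 3.45 and 3.32 on WT1 and WT2. In set 2 it read 6.04 and 6.84 on KO3 and KO4 against 4.81 and 5.46 on WT3 and WT4, apart by 1.31 ± 0.29 (adjusted p 0.129). Fos itself, the founding member of the family, did not follow: its groups overlapped in both sets, with differences of -0.11 ± 0.40 and -0.49 ± 0.40, and its highest set 2 value was 6.00 on WT4. Only 2 arrays of each set had Fos above low signal, so its differences lie partly near background. Fosl1 was under low signal on every array.

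Jun is the DNA-binding partner common to most AP-1 dimers. Its values were 5.88 and 6.36 on KO1 and KO2 against 6.75 and 5.81 on WT1 and WT2, then 9.04 and 8.53 on KO3 and KO4 against 6.97 and 9.50 on WT3 and WT4. The WT arrays enclosed the KO arrays in both sets, and the set 2 difference of 0.55 ± 0.76 rests on WT3, the lowest array: without it the difference was -0.72. Jund, a less inducible member that is held at a steadier level in most cells, differed by -0.40 ± 0.14 in set 1, where the arrays labelled KO were both lower, and by 0.17 ± 0.14 in set 2.

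Atf3, a stress-induced factor that can pair with Jun proteins, had one of the wider gaps in set 2. It read 7.25 and 8.36 on KO3 and KO4 against 5.49 and 5.84 on WT3 and WT4, a difference of 2.14 ± 0.33 (adjusted p 0.0896). In set 1 it read 4.28 and 4.46 on KO1 and KO2 against 4.74 and 4.55 on WT1 and WT2, apart in the other direction by a small -0.28 ± 0.33. Leaving out 1 array at a time moved its set 2 adjusted p between 0.0438, without KO3, and 0.321. Maff, a small Maf protein that dimerises with other leucine zipper factors, was above in both sets by 0.20 ± 0.17 and 0.44 ± 0.17. Myc differed by 0.24 ± 0.17 in set 2 with overlapping groups, and its set 1 groups overlapped as well.

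Egr1 is the zinc finger factor most often used as a readout of recent MAP kinase activity. It read 3.57 and 3.61 on KO1 and KO2 against 4.68 and 3.60 on WT1 and WT2, so that in set 1 only WT1 was above low signal. In set 2 it read 6.02 and 5.22 on KO3 and KO4 against 4.27 and 5.31 on WT3 and WT4, WT3 was under low signal, and WT4 lay between the KO arrays. The differences of -0.55 ± 0.47 and 0.83 ± 0.47 did not pass (adjusted p 0.926 and 0.469). Egr2, a further zinc finger of the family, lay within 0.02 of 0 in both sets, and Egr3 was under low signal on all arrays.

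Among the Klf factors the set 2 arrays were apart for all 4 members, 3 above and 1 below, where 24.0% of all genes were above and 19.1% below. Klf2, which in vessels is kept up by flow and in adipocyte precursors restrains differentiation, read 7.76 and 7.59 on KO3 and KO4 against 6.57 and 6.76 on WT3 and WT4, a difference of 1.01 ± 0.14 (adjusted p 0.0798). In set 1 it read 5.80 and 5.71 on KO1 and KO2 against 5.74 and 6.06 on WT1 and WT2, with overlap. Klf6, an injury-induced member, read 11.38 and 11.56 on KO3 and KO4 against 9.87 and 10.36 on WT3 and WT4, a gap of 1.36 ± 0.32 (adjusted p 0.133), while in set 1 its 8.96 and 9.56 on KO1 and KO2 interleaved with 8.88 and 9.68 on WT1 and WT2. Klf10, which is induced by TGF-beta and also oscillates with the circadian clock, was the member of the family below 0 in set 2. It read 8.89 and 9.01 on KO3 and KO4 against 10.59 and 10.39 on WT3 and WT4, a difference of -1.54 ± 0.38 (adjusted p 0.146). Its set 1 values of 6.90 and 7.21 on KO1 and KO2 lay between 7.54 on WT1 and 6.22 on WT2. Klf4 was lower by 0.29 on arrays labelled KO in set 1 and higher by 0.45 on KO arrays in set 2, with arrays apart both times.

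The Dusp genes encode phosphatases that switch MAP kinases off, and they held the widest differences of the 36 genes in set 1 and set 2. Dusp6 acts on ERK in the cytoplasm and is itself an ERK target. It read 5.78 and 6.10 on KO1 and KO2 against 9.44 and 8.70 on WT1 and WT2, and 10.47 and 9.12 on KO3 and KO4 against 5.95 and 7.79 on WT3 and WT4. Both KO arrays were therefore far below the WT arrays in set 1, by -3.13 ± 0.66 (adjusted p 0.330), and above them in set 2, by 2.92 ± 0.66 (adjusted p 0.129). Dusp4, a nuclear phosphatase of ERK and JNK, ran the same way. It read 6.88 and 5.93 on KO1 and KO2 against 8.18 and 8.39 on WT1 and WT2, and 9.75 and 9.61 on KO3 and KO4 against 6.93 and 8.26 on WT3 and WT4. Its differences were -1.88 ± 0.46 (adjusted p 0.380) and 2.08 ± 0.46 (adjusted p 0.127). Averaged over the sets these cancel, to -0.10 ± 0.47 for Dusp6 and 0.10 ± 0.32 for Dusp4.

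Dusp1, the stress-induced phosphatase of p38 and JNK, varied more within groups than between them. It read 6.73 and 7.99 on KO1 and KO2 against 9.50 and 7.56 on WT1 and WT2, and 11.01 and 9.44 on KO3 and KO4 against 8.32 and 11.24 on WT3 and WT4. The groups overlapped in both sets, with differences of -1.17 ± 1.09 and 0.44 ± 1.09. Dusp2 and Dusp5 were under low signal on every array.

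Of the Ier and Btg genes, 4 of 5 had both KO arrays above in set 2, where 24.0% of all genes did, and 1 of these was Ier5, which is under low signal. Btg1 and Btg2 are antiproliferative adaptors of the mRNA deadenylation machinery. Btg2 read 6.99 and 7.02 on KO3 and KO4 against 5.69 and 6.11 on WT3 and WT4 (1.11 ± 0.20, adjusted p 0.0997), and in set 1 its 6.00 and 6.22 on KO1 and KO2 overlapped with 6.48 and 6.02 on WT1 and WT2. Btg1 read 7.63 and 7.47 on KO3 and KO4 against 6.46 and 6.93 on WT3 and WT4 (0.85 ± 0.16, adjusted p 0.106), and in set 1 all of its arrays lay between 6.83 and 6.96. Ier2, a nuclear protein of the serum response, had opposite signs in the sets. It read 4.19 and 4.53 on KO1 and KO2 against 6.19 and 4.60 on WT1 and WT2, and 7.43 and 6.69 on KO3 and KO4 against 5.89 and 6.48 on WT3 and WT4. WT1 alone was high in set 1, where the difference was -1.03 ± 0.52, and the set 2 arrays were apart by 0.87 ± 0.52. Ier3 was lower on both KO arrays in set 2, by -0.22 ± 0.23.

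None of the 4 feedback regulators had its arrays apart in set 1, where the arrays of 18934 of all 30723 genes overlapped as well. Nfkbia, the inhibitor that holds NF-kappaB in the cytoplasm, read 11.00 and 10.71 on KO1 and KO2 against 10.25 and 10.84 on WT1 and WT2, and 12.04 and 12.07 on KO3 and KO4 against 10.91 and 11.89 on WT3 and WT4. The set 2 arrays were apart, by 0.66 ± 0.33 (adjusted p 0.413), though most of that gap came from WT3. Ppp1r15a, the stress-induced phosphatase subunit GADD34 that restores translation, read 5.25 and 5.67 on KO3 and KO4 against 4.43 and 4.94 on WT3 and WT4 (0.77 ± 0.22, adjusted p 0.176), with WT3 under low signal. Its set 1 values of 3.85 and 3.99 on KO1 and KO2 and 4.16 and 3.90 on WT1 and WT2 sat close to background. Zfp36, which binds AU-rich mRNAs and marks them for decay, overlapped in both sets (0.78 ± 0.48 and -0.02 ± 0.48).

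Among the inducible kinases was Plk3, the member that passed the test between sets described further on. Plk3, a stress-responsive polo-like kinase, read 4.48 and 4.91 on KO1 and KO2 against 5.73 and 5.29 on WT1 and WT2, and 8.81 and 9.14 on KO3 and KO4 against 5.74 and 6.66 on WT3 and WT4. Arrays labelled KO were below in set 1 by -0.81 ± 0.32 (adjusted p 0.619) and above in set 2 by 2.77 ± 0.32 (adjusted p 0.0779). Sik1, a salt-inducible kinase that cyclic AMP induces and that in turn restrains the CREB coactivators, read 5.92 and 6.08 on KO1 and KO2 against 7.22 and 6.93 on WT1 and WT2, and 10.52 and 9.03 on KO3 and KO4 against 7.01 and 7.92 on WT3 and WT4. Its differences were -1.08 ± 0.49 (adjusted p 0.690) and 2.31 ± 0.49 (adjusted p 0.119). Plk2, the relative of Plk3, was the one gene below in both sets, by -0.27 ± 0.14 and -0.41 ± 0.14.

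Ccn1 and Ccn2 encode secreted matricellular proteins under YAP and serum response factor control, and Arc is known from synapses. Ccn1 spread over several log2 units within groups, from 7.50 on KO1 to 10.53 on KO2 and from 7.79 on WT3 to 11.54 on WT4, and its differences of 1.68 ± 1.38 and 1.37 ± 1.38 were close to their errors. Ccn2 stayed within 0.15 of 0 in both sets, and Arc was under low signal throughout.

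**Figure D2:**
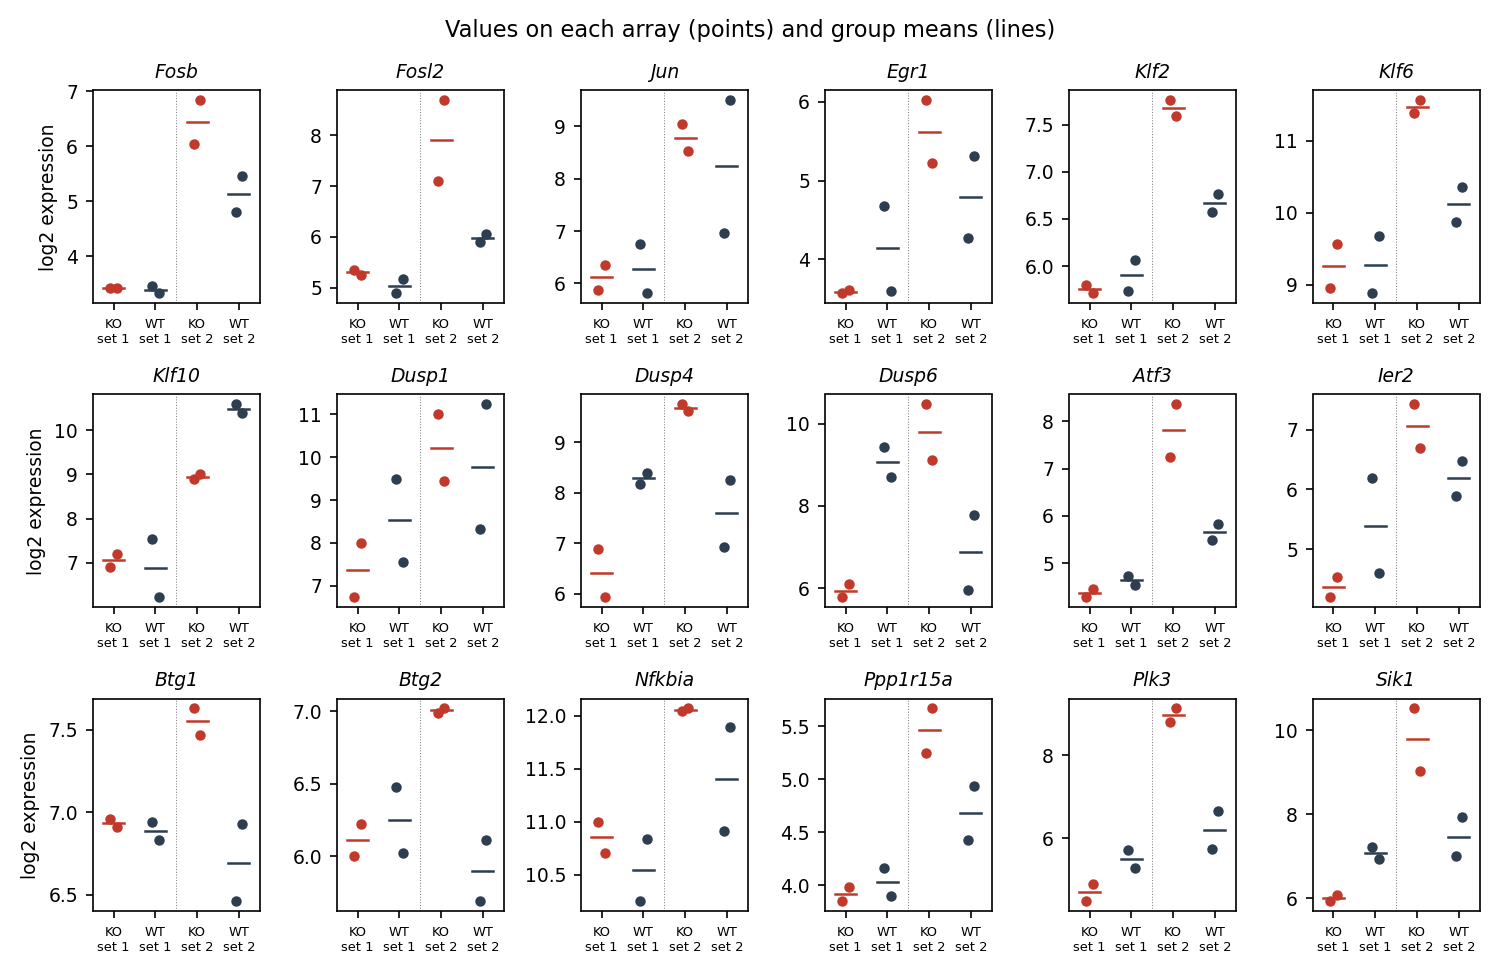
Deposited log2 value of 18 immediate early genes on each array, with red points for KO and dark points for WT, the short lines giving the mean of the 2 arrays and the dotted line separating set 1 (left) from set 2 (right), whose levels are not comparable. Each panel has its own axis; Dusp4, Dusp6, Atf3, Ier2, Plk3 and Sik1 show KO below WT on the left and above it on the right, and Klf10 shows KO below WT on the right.

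Whether the KO minus WT difference was unequal in the sets was tested as set 2 minus set 1 in the same fit. Plk3 was the 1 member of 36 that passed, where 0.498% of all genes did (153 genes, 115 of them above 0). Its differences were unequal by 3.58 ± 0.46 (SE, 95% CI 2.50 to 4.67, adjusted p 0.0448). The call was close to the threshold. It held in 3 of 17 alternatives and was lost when any 1 of the 8 arrays was left out. Among the 3 was the mean over all probe sets of a gene, which left the Plk3 value unchanged because Plk3 has 1 probe set. The value itself stayed between 3.12 and 4.04 over the alternatives. Dusp6 had the widest gap between sets, 6.05 ± 0.93 (adjusted p 0.0556), and Dusp4 was at 3.96 ± 0.64 (adjusted p 0.0602), Sik1 at 3.38 ± 0.69 (adjusted p 0.0906) and Atf3 at 2.42 ± 0.47 (adjusted p 0.0863). Klf2 was at 1.15 ± 0.20 (adjusted p 0.0669). These gaps hold for the labels as given: with KO and WT exchanged in set 1 the test would be that of the mean difference, where Plk3 was at 0.98 ± 0.23, Dusp6 at -0.10 ± 0.47 and Dusp4 at 0.10 ± 0.32, none of them past the threshold. The mean difference would in turn be tested as the gaps are here, so Plk3 would pass that test, at the adjusted p of 0.0448. With the labels as given and the test between sets restricted to genes above low signal, Dusp6 (adjusted p 0.0395) and Dusp4 (adjusted p 0.0430) passed too. In all, 16 members had an unadjusted p under 0.05 (44.4%, against 14.9% of all genes and 3933 of the 17095 genes above low signal). Of these, 15 had the greater difference in set 2 (41.7% of members, against 9.43% of all genes), and Klf10 was the 1 member in the other direction, where 5.43% of all genes lay. Signs were opposite in the sets for 23 members (63.9%, against 56.9% of all genes and 10554 of the 17095 genes above low signal). This share is near the background of expressed genes.

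**Figure D3:**
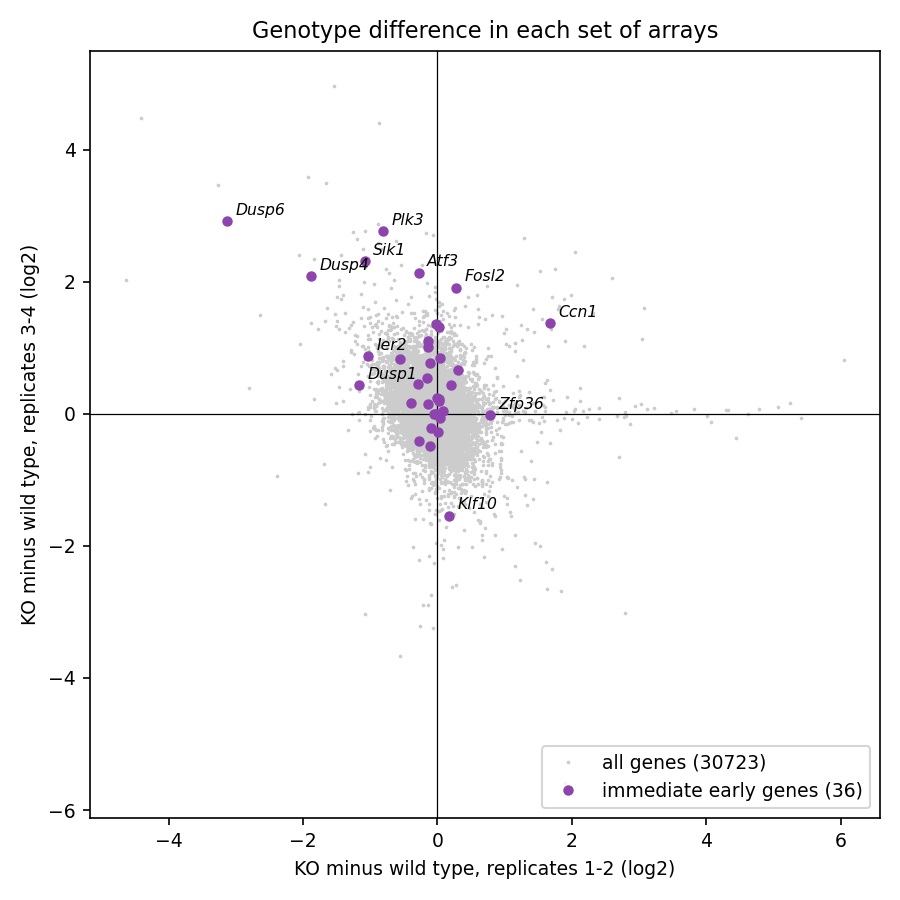
KO minus WT difference (log2) in replicates 1 and 2 on the horizontal axis and in replicates 3 and 4 on the vertical axis, with grey points for all 30723 genes and purple points for the 36 immediate early genes; genes with a wide difference are named. Of the purple points 9 come from arrays that were apart in both sets in opposite directions, among them Dusp6 at -3.13 and 2.92 and Plk3 at -0.81 and 2.77.

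Single arrays were often at the extreme of their set. WT3 was the lowest of the 4 set 2 arrays for 24 of the 36 members (66.7%, against 27.8% of all genes), and KO4 was the highest for 15 (41.7%, against 26.3%). Averaged over the 36 genes the set 2 arrays read 7.01 and 7.00 on KO3 and KO4 against 6.02 and 6.65 on WT3 and WT4. Without WT3 the median difference over the members in set 2 was 0.196, with 23 above 0, and without WT4 it was 0.794, with 30 above 0. In set 1 WT1 was the highest array for 19 members (52.8%, against 23.4% of all genes) and KO1 the lowest for 14 (38.9%, against 21.4%). The member means there were 5.05 and 5.27 on KO1 and KO2 against 5.51 and 5.26 on WT1 and WT2. Without WT1 the set 1 median was 0.002, and without KO1 it was -0.003, with 18 members above 0 each time, so the larger count below 0 in set 1 rests on those arrays.

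The arrays also differed in genes of other tissues, and the part of these in the results above was not tested. The mean of 13 skeletal muscle markers was 5.62 and 10.77 on KO3 and KO4 against 11.15 and 9.43 on WT3 and WT4, and 6.24 and 9.31 on KO1 and KO2 against 8.25 and 7.75 on WT1 and WT2. It was thus highest on WT3 and lowest on KO3. All 13 muscle markers had a difference below 0 in set 2. The mean of 12 liver markers was 12.45 and 9.22 on KO1 and KO2 against 8.82 and 6.91 on WT1 and WT2, with Alb, the albumin gene, at 19.23, 15.81, 14.51 and 10.03 in that order. In set 2 the liver mean lay between 5.35 and 5.69 on all 4 arrays, with Alb at 4.79 to 5.23. Cyp2e1 of that list read 15.94 to 17.86 there and 16.85 to 17.71 in set 1. It raised the set 2 mean above most of the other liver genes. The mean of 12 brown adipocyte markers was 14.53 to 15.01 in set 1 and 15.26 to 15.89 in set 2, lowest on KO1 and KO4 of their sets. Of its 12 differences 6 were above and 6 below 0 in set 1, with a median of 0.003. In set 2, 2 were above 0 (Dio2 and Ppargc1a) and 10 below, with a median of -0.135, where 46.4% of all genes were below 0. Among those below were Ucp1, Cidea and Fabp4, each at -0.01 and with values near the top of the scale, so they show no direction. Single genes of that list, named after their values were seen, differed far more than its mean. Dio2, the enzyme that activates thyroid hormone, differed by -4.62 ± 0.88 and 2.02 ± 0.88, and Ppargc1a, the cold-induced coactivator, by -0.92 ± 0.51 and 1.36 ± 0.51. Plin1, a lipid droplet coat gene, differed the other way, by 0.67 ± 0.43 and -1.91 ± 0.43. Otop1, a proton channel gene of brown fat, read 13.47 and 13.59 on KO1 and KO2 against 12.44 and 11.72 on WT1 and WT2, and 12.96 and 12.53 on KO3 and KO4 against 15.09 and 14.30 on WT3 and WT4. It passed the test between sets with the sign opposite to Plk3, at -3.41 ± 0.46 (adjusted p 0.0467, 0.0348 to 0.229 over 17 alternatives, of which 4 passed). Macrophage markers (12 genes) averaged 7.25 and 7.38 on KO3 and KO4 against 6.99 and 7.19 on WT3 and WT4, and endothelial markers (9 genes) 10.29 and 10.45 against 9.97 and 10.17, and 9 of the 12 and 6 of the 9 had a set 2 difference above 0. The medians of those differences were 0.242 and 0.054, and the endothelial mean was moved mostly by Cldn5, a tight junction gene (2.13 ± 0.32), named after its values were seen. In set 1 the same lists spread over 5.46 to 5.87 and 8.43 to 8.88. Fibroblast markers (8 genes) were lower on the KO arrays of set 2, at 8.05 and 8.0 against 8.37 and 8.29. The 7 lymphocyte markers averaged 3.47 to 3.60 in set 1 and 4.48 to 4.58 in set 2, averages under low signal. Cd3e (4.86 to 5.27) and Cd79b (4.86 to 5.03) were above low signal on all 4 arrays of set 2. In bulk tissue, fewer cells of a type and less RNA per cell cannot be told apart.

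Regulators upstream of these genes were described as a list of 28 kinases, coactivators and promoter factors, of which 22 were measured. Their differences were above 0 for 9 and below for 13 in set 1, and above for 10 and below for 12 in set 2, with medians of -0.051 and -0.056. None passed within a set or for the mean of the sets in the limma fit, and 1 had an unadjusted p under 0.05 for the mean, against 7.12% of all genes. For the difference between sets 6 had such a p, against 14.9% of all genes. Arrays labelled KO were below in set 1 and above in set 2 for 5 (7.4% of all genes, 12.0% of those above low signal). The reverse held for 2 (1624 of all 30723 genes). By smallest p for the mean difference the first 4 were Prkaca, Mapk14, Mapk9 and Map2k2. Prkaca, the catalytic subunit of protein kinase A, read 13.32 and 13.02 on KO3 and KO4 against 14.39 and 14.10 on WT3 and WT4, and differed by 0.33 ± 0.22 in set 1 and -1.08 ± 0.22 in set 2. The p38 kinase gene Mapk14 differed by -0.52 ± 0.13 and 0.13 ± 0.13, the JNK gene Mapk9 by -0.14 and -0.17, and the MEK gene Map2k2 by 0.15 and -0.40. One upstream gene passed the test between sets, and it was named after its values were seen. Srf, the serum response factor that binds many of these promoters, read 5.56 and 5.47 on KO1 and KO2 against 6.21 and 6.06 on WT1 and WT2, and 7.96 and 7.80 on KO3 and KO4 against 6.92 and 7.18 on WT3 and WT4. Its differences were -0.61 ± 0.13 and 0.84 ± 0.13, unequal by 1.45 ± 0.18 (adjusted p 0.0438), and the call held in 5 of 17 alternatives (adjusted p 0.0348 to 0.188).

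Another 35 rapidly induced genes that are not members were counted as a list. It had 16 differences above 0 and 19 below in set 1, where 51.0% and 48.9% of all genes lay, and 24 above and 11 below in set 2, where 53.6% and 46.4% lay. The medians were -0.018 and 0.254. None passed in the limma fit within a set or for the mean of the sets, and 8 had an unadjusted p under 0.05 for the mean, against 7.12% of all genes. Its means were 6.73 and 6.87 on KO1 and KO2 against 7.07 and 6.89 on WT1 and WT2, and 8.65 and 8.61 on KO3 and KO4 against 7.72 and 8.27 on WT3 and WT4, with WT3 again lowest. Irs2, the insulin receptor substrate that cyclic AMP induces, read 9.70 and 9.19 on KO1 and KO2 against 10.67 and 9.96 on WT1 and WT2, and 14.76 and 14.09 on KO3 and KO4 against 9.04 and 11.02 on WT3 and WT4. Its set 2 difference of 4.40 ± 0.62 had an adjusted p of 0.0798. Errfi1, a feedback inhibitor of the EGF receptor, was above in both sets (0.62 ± 0.32 and 1.47 ± 0.32), and Cdkn1a, the cell cycle inhibitor p21, in set 2 (-0.02 ± 0.32 and 1.74 ± 0.32). Nr4a3, an orphan nuclear receptor of the same response, passed the test between sets: it differed by -1.26 ± 0.35 and 2.76 ± 0.35, unequal by 4.02 ± 0.49 (adjusted p 0.0437, 0.0204 to 0.222 over 17 alternatives, of which 6 passed). Its relative Nr4a2, named after its values were seen, was unequal by 4.46 ± 0.64 (adjusted p 0.0498, 2 of 17 alternatives passed). Nr4a1, the third relative, was unequal by 8.88 ± 2.12 and did not pass (adjusted p 0.119). Of the 35 genes, 7 had their arrays below in set 1 and above in set 2 (2273 of all 30723 genes). The reverse held for 3 (1624 of all genes), among them Rhob (1.39 and -0.72) and Bhlhe40 (1.63 and -2.65).

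Genes known as AP-1 targets, which encode proteases, receptors and cytoskeletal proteins, had medians near 0 in both sets. Of 15 listed, 12 were measured, Fosl1 of the members among them, and their differences were above 0 for 7 and below for 5 in set 1 and for 6 and 6 in set 2, with medians of 0.018 and 0.039. Mmp9, Timp1, Fosl1, Lif and Hbegf of this list were under low signal on every array. The medians therefore describe in part probe sets near background. None passed any of the 4 tests in the limma fit, and 1 had an unadjusted p under 0.05 for the difference between sets, against 14.9% of all genes. The 4 with the smallest p for the mean difference were Plau, the urokinase gene (mean difference -0.27 ± 0.14), Vim, the vimentin gene (-0.53 ± 0.29), Plaur, the urokinase receptor gene (0.16 ± 0.10), and Mmp14, a membrane-bound metalloprotease gene (0.13 ± 0.11), with adjusted p of 0.767 to 0.886. Vim differed by -1.47 in set 1 and 0.40 in set 2.

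**Figure D4:**
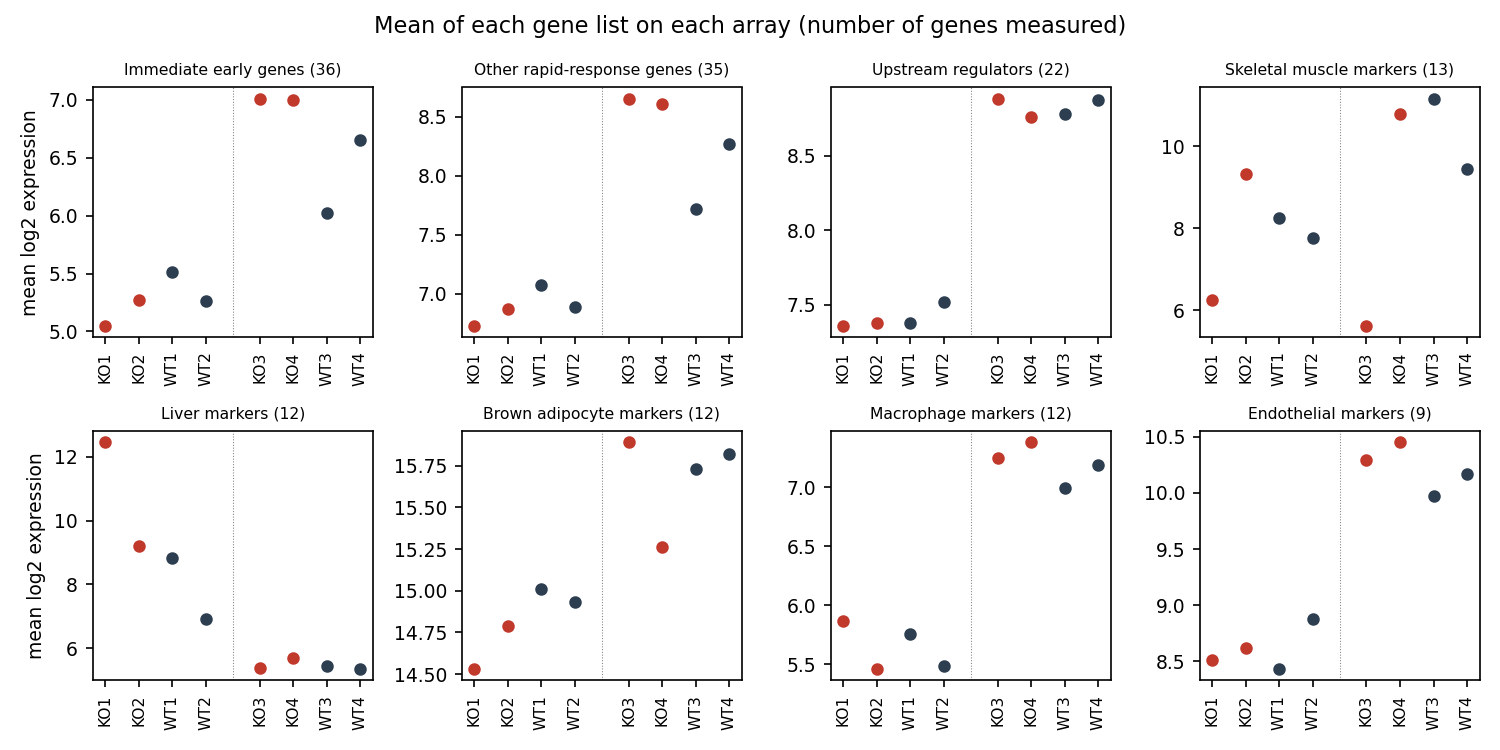
Mean log2 value of 8 gene lists on each array, with red points for KO, dark points for WT, set 1 left and set 2 right of the dotted line, and the number of genes measured in each title. The immediate early genes read 7.01 and 7.00 on KO3 and KO4 and 6.02 on WT3; the skeletal muscle list is highest on WT3 at 11.15, and the liver list highest on KO1 at 12.45.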

How the data were processed

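RNA of 8 mice was measured on 1 array each, per the labels. The deposited log2 values were made by the authors with RMA in Affymetrix Expression Console (core-exon analysis), per the labels and the submitters' processing notes (software versions: not given in the sources used here; genome build likewise). The design text names Clariom S, whereas the table holds 72688 probe sets (6732 controls), so the array type is unsettled. The number of arrays limits the precision.

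Of the 65956 other probe sets, 31266 name 1 gene, 1484 name several and 33206 are unnamed here. Old symbols were replaced by way of gene identifiers, with RefSeq's GRCm38.p6 table. The probe set with the highest mean stood for a gene, as 418 genes had more than 1. limma 3.58.1 in R 4.3.3 (lmFit, eBayes) was fitted to 4 cells, genotype by set, over 30723 genes, with Benjamini-Hochberg adjustment over all of them. It was tested on simulated data. The sets were treated as normalized apart because their value distributions differ. The labels do not say whether samples within a group were separate cages or litters.

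Members and lists were chosen with earlier results of these data known. Values on every array were given for the member with the largest mean difference of each of the Fos, Jun, Egr, Klf and Dusp families, members that passed a test, and members whose arrays were apart with a difference of at least 0.5 in a set; of the upstream, rapid-response and AP-1 target lists the 4 with the smallest p for the mean difference were named. Other normalizations, filters, variance models and left-out arrays were tried as alternatives.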

Additional observations from a re-analysis of the deposited data

Results flagged for a closer look

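Each of the 36 members and Hilpda was checked for outlying arrays in the KO and in the WT group. In 3 cases 1 array of a group of 4 stood far from the nearest other, by Dixon's criterion at 95%. Chance meets that criterion in about 1 of 20 groups, so a few cases are met at that rate over the groups checked. It was taken over arrays of both sets, so that a gap can also hold the shift in level between them. The cases were Dusp4 on WT3, at 6.93 the lowest WT array, Zfp36 on KO1, at 5.74 the lowest KO array, and Ccn1 on WT4, at 11.54 the highest WT array. The KO minus WT difference was unequal in the sets by the limma test for Plk3 (3.58), Nr4a2 (4.46), Nr4a3 (4.02) and Srf (1.45), each below 0 in set 1 and above 0 in set 2, and for Otop1 (-3.41), above 0 in set 1 and below 0 in set 2.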

How the results depend on the processing

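Over all genes, leaving out 1 array at a time gave 0 to 14 calls for the set 1 difference, 0 to 10 for set 2, 0 to 3 for the mean and 0 to 10 between sets. The set 2 count of 1 became 0 with the replicate number as a replicate block, with quantile normalization, with ordinary least squares, with the set fitted alone and with all probe sets that are not controls (chosen after seeing the data), and 12 with the filter on low signal. The 153 calls between sets became 3 with the replicate block, 82 with arrays centred, 342 with the filter, 4 with a variance trend, 0 with ordinary least squares and 38 with all probe sets. The labels do not say what a replicate number marks, and with 2 arrays per cell the deviations from the cell means are mirror images that give 1 correlation per set, 0.107 in set 1 and -0.0885 in set 2, which does not settle pairing. With the block Plk3 had an adjusted p of 0.0737 between sets. Members above 0 in set 1 numbered 9 with arrays centred and 8 with the filter (of 29); the set 2 median was 0.775 with the filter and 0.196 to 0.794 over left-out arrays.

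Of 1472 alternatives for 23 single genes, 1365 kept direction and side of the threshold. A call was lost in 65 and gained in 5, and 37 changed sign. Most of the results were not calls in the main fit, so keeping their side of the threshold tells little about the calls. The calls were those between sets for Plk3, Srf, Nr4a2, Nr4a3 and Otop1. Of 17 alternatives for each, 3, 5, 2, 6 and 4 passed in that order. All 65 losses fell on these. Each of the 23 genes had 1 probe set, so averaging probe sets left their values unchanged. The cause of the changes was not tested. Scaling changed the sign of the set 1 difference for Fosb (-0.01 with quantile normalization, -0.00 with arrays centred) and Klf6 (0.07 with quantile normalization). Leaving out 1 array changed the sign in set 1 for Fosb (-0.04 to 0.09), Jun (-0.63 to 0.31), Klf2 (-0.30 to 0.01), Klf6 (-0.42 to 0.38), Klf10 (-0.49 to 0.84), Btg1 (-0.01 to 0.10), Btg2 (-0.37 to 0.09) and Ppp1r15a (-0.24 to 0.02); in set 2 for Jun (-0.72 to 1.81) and Dusp1 (-1.02 to 1.90); for the mean for Jun (-0.44 to 0.83), Egr1 (-0.13 to 0.41), Dusp1 (-1.09 to 0.36), Dusp4 (-0.23 to 0.44), Dusp6 (-0.56 to 0.36), Ier2 (-0.48 to 0.32) and Nr4a2 (-0.11 to 0.45); and between sets for Jun (-0.55 to 1.98) and Nfkbia (-0.14 to 0.84). Signal over background limits the 7 members under low signal.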
